A study of Mus musculus with 23 samples.

Results

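The genes of triglyceride breakdown and of the lipid droplet surface were followed in the epididymal fat pad and the quadriceps of mice with pancreatic tumors. The 10 genes, Pnpla2, Lipe, Mgll, Abhd5, G0s2, Plin1, Plin4, Cidec, Adrb3 and Pnpla3, were taken by symbol, and all 10 had a row among the 16962 genes counted in fat and among the 12831 genes counted in quadriceps. The mice were male C57BL/6J mice that had surgery at 8 weeks of age. No tumor mice had sham surgery. KPC mice received an injection into the pancreas of KPC cells, a line from a pancreatic tumor of a genetically engineered mouse with mutant Trp53 and Pdx1-Cre, here carrying a null guide RNA plasmid. KPC IL6KO mice received KPC cells in which the Il6 gene had been edited. Each line was a single clone, so a difference between the tumor groups can be a difference between clones as well as of Il6, and the host mice kept their own Il6 gene in all groups. RNA was sequenced from the fat of 4 mice in each group. For quadriceps there were 3 libraries of no tumor, 4 of KPC and 4 of KPC IL6KO mice. RNA of fat and of muscle was isolated and sequenced separately, and all mice were killed when the KPC mice were wasting.

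A fat cell stores triglyceride in a droplet and releases it by a chain of lipases. Pnpla2 (adipose triglyceride lipase) starts the chain, Lipe (hormone-sensitive lipase) cleaves the diglyceride and Mgll the monoglyceride. Abhd5 (CGI-58) activates Pnpla2 and G0s2 inhibits it. Plin1 coats the droplet of the fat cell and holds Abhd5 away from Pnpla2 until Adrb3, the catecholamine receptor of the fat cell, raises cAMP. Cidec helps droplets grow, Plin4 coats small droplets, and Pnpla3, a relative of Pnpla2 found at the droplet, is known to be raised by feeding. Muscle fibers also use Pnpla2 to release fatty acid from their own small droplets.

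Levels are given as CPM, the counts relative to the TMM-normalized library total, and a gene is called where the FDR is at most 0.05 and the FC at least 1.5 by edgeR's quasi-likelihood test over all genes of the tissue. Libraries held 26306377 to 56308545 counts in fat and 19259763 to 74907810 in quadriceps. The labelled tissue was checked on its markers. The 10 adipocyte markers summed to between 3002 and 39766 CPM in fat, so that the fat libraries of no tumor mice alone differed over the whole of this range, against 3537 to 13503 CPM in KPC and 5247 to 22594 CPM in KPC IL6KO. Adipoq, a hormone made by fat cells, ran from 123 CPM in no tumor 7 to 2830 CPM in no tumor 6. The fat libraries also held epididymis RNA, and Gpx5, a secreted protein of the epididymis, ranged from 21347 to 54957 CPM in no tumor 5 and 7, in KPC 5 to 8 and in KPC IL6KO 6, but at 4.69 to 85.8 CPM in the other 5 pads. These 5 pads held epididymis RNA as well, with the 17 epididymis genes counted summing to 4316 to 19424 CPM against 48796 to 110771 CPM in the 7 pads high in Gpx5. Crisp1, another secreted protein of the epididymis, did not follow Gpx5, at 621 to 14517 CPM in those 5 pads and 156 to 5754 CPM in the 7. All 4 KPC pads were thus high in Gpx5, against 2 no tumor pads and 1 KPC IL6KO pad. In the same 3 groups (no tumor, KPC, KPC IL6KO), the 10 macrophage markers summed to 308 to 1108, 1384 to 2031 and 498 to 3779 CPM. Skeletal muscle fiber markers (9 of 10 counted) summed to 17.4 to 294, 11.9 to 17.4 and 102 to 2591 CPM, and exocrine pancreas and stomach markers (5 of 11 counted) to 8.06 to 18, 20.5 to 101 and 7.75 to 61.4 CPM. The part of these differences in the results for fat was not tested, and in bulk tissue fewer fat cells and less RNA per fat cell cannot be told apart.

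In fat, none of the 10 genes was called between KPC and no tumor, but Pnpla3, Adrb3 and Plin1 stood lowest in KPC, at 18.5-fold, 11.3-fold and 5.19-fold below no tumor, while Abhd5 differed by 1.04-fold. The log2 FC was below 0 for all 10 genes, from -0.05 to -4.21 with a median of -1.32, against a median of -0.10 over all genes. The quasi-likelihood test called 0% of all genes in this comparison. In simulated fat counts it called 6 of 100 genes changed 2-fold and 41 of 100 changed 4-fold. A gene not called in fat is thus not shown to be unchanged. An unadjusted p under 0.05 was found for 4 of the 10 genes and for 12.2% of all genes. With edgeR's likelihood ratio test, which called 2.43% of all genes, and with DESeq2, which called 3.45%, the members called were 2, Pnpla3 and Adrb3, in each case. Without no tumor 6, the library richest in adipocyte RNA, Pnpla2, Abhd5, G0s2 and Plin4 had a log2 FC above 0.

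**Figure D1:**
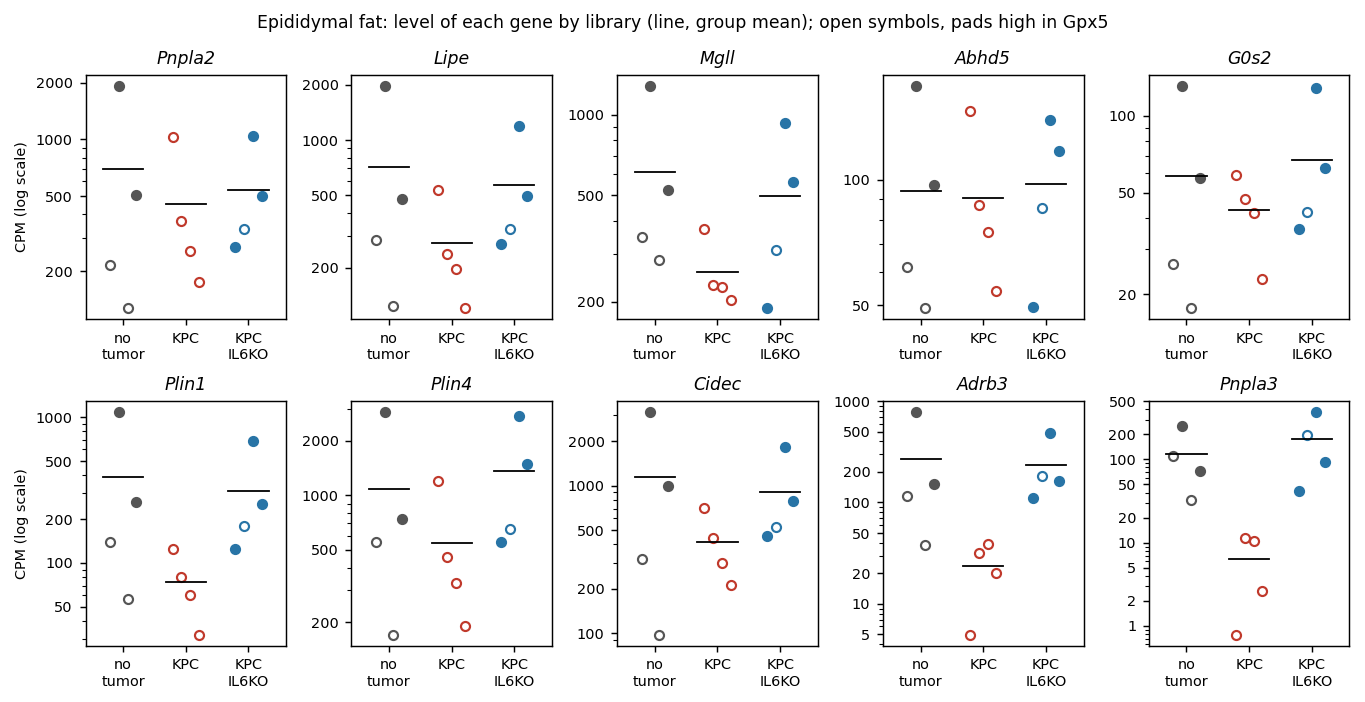
CPM of the 10 genes in epididymal fat on log axes, 1 symbol per library, with the group mean as a line and open symbols for pads high in Gpx5. The 4 KPC libraries lie below every other library for Pnpla3, at 0.788 to 11.4 CPM, and overlap the no tumor libraries for the lipases, with KPC 6 to 8 below every no tumor library for Mgll.

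Pnpla3 was at 111, 252, 32.4 and 72.1 CPM in no tumor 5 to 8. It was at 0.788, 11.4, 10.3 and 2.6 CPM in KPC 5 to 8, the first of these resting on 27 counts. It was at 42.1, 196, 372 and 94.3 CPM in KPC IL6KO 5 to 8. Every KPC library was below every library of the other groups, and the other two groups overlapped. Among all genes, 10.9% had no overlap of KPC with no tumor and 4.33% had no overlap of KPC with KPC IL6KO. The log2 FC was -4.21 ± 1.00 (SE, FDR = 0.212) between KPC and no tumor and -4.81 ± 1.02 (FDR = 0.535) between KPC and KPC IL6KO in edgeR's quasi-likelihood test. The likelihood ratio test gave an FDR of 0.00266 and 0.0015 for these comparisons, and DESeq2 an FDR of 0.000221 and 3.12e-05. Within the pads high in Gpx5, the log2 FC between KPC and no tumor was -3.37 (FDR = 0.119, 4 against 2 libraries).

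Adrb3 was at 116, 780, 38.5 and 150 CPM in no tumor 5 to 8. It was at 4.99, 31.6, 39.0 and 20 CPM in KPC 5 to 8. It was at 111, 181, 482 and 164 CPM in KPC IL6KO 5 to 8. All KPC libraries were below those of KPC IL6KO, whereas KPC 7 lay just above no tumor 7. Against no tumor, Adrb3 had a log2 FC of -3.50 ± 0.95 (SE, FDR = 0.234), and it was -3.29 ± 0.94 (FDR = 0.664) against KPC IL6KO. The value against no tumor was -2.09 without no tumor 6 and -1.56 (FDR = 0.297) within the pads high in Gpx5. Adrb3 and Pnpla3 were the members whose groups did not overlap between KPC and KPC IL6KO, where edgeR's quasi-likelihood test called 0% of all genes. In that comparison the likelihood ratio test called 0.389% of all genes and 1 member, Pnpla3, and DESeq2 called 0.737% and 2 members, Pnpla3 and Adrb3.

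Plin1 was at 139, 1085, 56.9 and 262 CPM in no tumor 5 to 8. It was at 125, 79.6, 60.3 and 32.3 CPM in KPC 5 to 8. It was at 124, 178, 682 and 253 CPM in KPC IL6KO 5 to 8. KPC 8 lay below every no tumor library. KPC 6 to 8 lay below every KPC IL6KO library, and KPC 5 was level with KPC IL6KO 5. Its log2 FC was -2.38 ± 0.87 (SE, FDR = 0.329) against no tumor and -2.06 ± 0.86 (FDR = 0.756) against KPC IL6KO. Without no tumor 6 the first of these was -1.04, and within the pads high in Gpx5 it was -0.29.

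The starts of Pnpla3 and Plin1, which stood low in KPC fat, are shown from 250 bases before to 50 bases after the RefSeq start site on GRCm38.p6, in the direction of the gene. Capitals mark matches to any of 7 motifs searched on both strands, TTCNNNGAA (STAT), GTAAACA (forkhead), AGGTCA (nuclear receptor half-site), AGAACA (glucocorticoid receptor half-site), TGACGTCA (cAMP response element), TTGCNNAA (C/EBP) and CACGTG (E-box), where N is any base.
Pnpla3, chr15:84167566-84167865, plus strand: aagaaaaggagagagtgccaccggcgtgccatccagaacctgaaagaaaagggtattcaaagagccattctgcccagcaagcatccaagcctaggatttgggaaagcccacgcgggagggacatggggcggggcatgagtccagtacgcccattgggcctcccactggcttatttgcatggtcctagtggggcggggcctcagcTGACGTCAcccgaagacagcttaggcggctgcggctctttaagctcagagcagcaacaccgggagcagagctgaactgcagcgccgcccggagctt
Plin1, chr7:79732727-79733026, minus strand: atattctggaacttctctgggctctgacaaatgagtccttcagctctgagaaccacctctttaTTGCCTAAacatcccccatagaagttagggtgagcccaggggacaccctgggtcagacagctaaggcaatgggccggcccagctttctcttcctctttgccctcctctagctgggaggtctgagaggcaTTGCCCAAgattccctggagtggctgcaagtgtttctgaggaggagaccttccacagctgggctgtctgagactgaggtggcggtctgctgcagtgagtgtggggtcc
The Pnpla3 window held the palindrome TGACGTCA, at -46 to -39 from the start site, a run found in 1.79% of the 32851 windows of this length. The Plin1 window held the C/EBP letters at -187 to -180 and at -58 to -51 from the start site, and 10.8% of all windows held them at least once. Of the 10 genes, 9 had a window. These matches are letters in a sequence, and no binding was measured here.

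The lipases and the regulators of Pnpla2 overlapped between all groups in fat. Pnpla2 was at 216, 1928, 127 and 509 CPM in no tumor 5 to 8. It was at 1029, 367, 255 and 176 CPM in KPC 5 to 8. It was at 267, 335, 1048 and 503 CPM in KPC IL6KO 5 to 8. A single library stood well above the rest in each group, no tumor 6, KPC 5 and KPC IL6KO 7. The log2 FC between KPC and no tumor was -0.61 ± 0.85 (SE, FDR = 0.781), with a 95% interval from -2.46 to 1.25, and without no tumor 6 it was 0.68. Lipe followed the same libraries in no tumor mice, at 285, 1982, 123 and 475 CPM, and was at 120 to 536 CPM in KPC and 269 to 1191 CPM in KPC IL6KO. Its log2 FC between KPC and no tumor was -1.39 ± 0.83 (FDR = 0.547), and -0.11 without no tumor 6. Mgll was at 286 to 1282 CPM in no tumor, 203 to 372 CPM in KPC and 189 to 926 CPM in KPC IL6KO, with a log2 FC of -1.24 ± 0.56 (FDR = 0.409) between KPC and no tumor that was -0.58 without no tumor 6. Abhd5 was the member nearest to no difference, at 49.2 to 168 CPM in no tumor, 54.2 to 146 CPM in KPC and 49.7 to 139 CPM in KPC IL6KO. G0s2 was at 17.6 to 131, 23 to 58.7 and 36.2 to 129 CPM in these 3 groups.

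The droplet coats Plin4 and Cidec overlapped between the groups as well. Plin4 was at 552, 2880, 171 and 743 CPM in no tumor 5 to 8, at 191 to 1204 CPM in KPC and at 551 to 2750 CPM in KPC IL6KO. Cidec was at 319, 3160, 98 and 1002 CPM in no tumor, at 211 to 709 CPM in KPC and at 453 to 1840 CPM in KPC IL6KO. The log2 FC between KPC and no tumor was -1.0 ± 0.86 (FDR = 0.678) for Plin4 and -1.46 ± 0.89 (FDR = 0.560) for Cidec, and without no tumor 6 it was 0.16 and -0.18. Per kilobase of exon, Cidec was the highest of the 10 genes in fat, at 617 ± 753 CPM per kb in no tumor (SD, n = 4), and Pnpla2 followed at 230 ± 277. The libraries of these neighbours overlapped. Abhd5 was the lowest in no tumor, at 15.8 ± 8.93 CPM per kb, whereas Pnpla3 was the lowest in KPC, at 4.06 ± 3.47 against 75.4 ± 61.7 in no tumor.

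Between KPC IL6KO and no tumor fat, none of the 10 genes was called, none had an unadjusted p under 0.05, and the groups overlapped for all 10, with a log2 FC from -0.37 for Pnpla2 to 0.59 for Pnpla3. The log2 FC was below 0 for 6 of the 10 genes, and without no tumor 6 it was above 0 for all 10, from 0.37 for Mgll to 1.48 for Plin4. edgeR's quasi-likelihood test called 0% of all genes here, the likelihood ratio test 1.23% and DESeq2 1.68%, with no member among them, and 2.01% of all genes had no overlap of the groups. The 95% interval was wide, from -2.22 to 1.48 for Pnpla2 and from -1.33 to 2.51 for Pnpla3, so these values do not show that the groups were alike. This comparison and that of KPC share the no tumor libraries.

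The members were high and low together over the fat libraries. Over the 12 libraries, log2 CPM of Plin1 had a Pearson r of 0.96 with Lipe, 0.93 with Plin4, 0.92 with Mgll, 0.92 with Cidec, 0.87 with G0s2, 0.84 with Pnpla2, 0.80 with Adrb3, 0.77 with Abhd5 and 0.72 with Pnpla3. The 5 other genes closest to Plin1 were Sucnr1, the succinate receptor, with an r of 0.99, then Apol6, Abhd15, Sgce and Lims2 with an r of 0.98 each, among 13906 genes searched. These are descriptions over libraries that differ in adipocyte RNA. The levels were also expressed per 1000 counts of the 10 adipocyte markers. This scaling set the median log2 FC of all genes at 0.25 between KPC and no tumor and at 0.63 between KPC and KPC IL6KO. Between KPC IL6KO and no tumor it set this median at -0.33, and the values below are to be read against these medians.

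**Figure D2:**
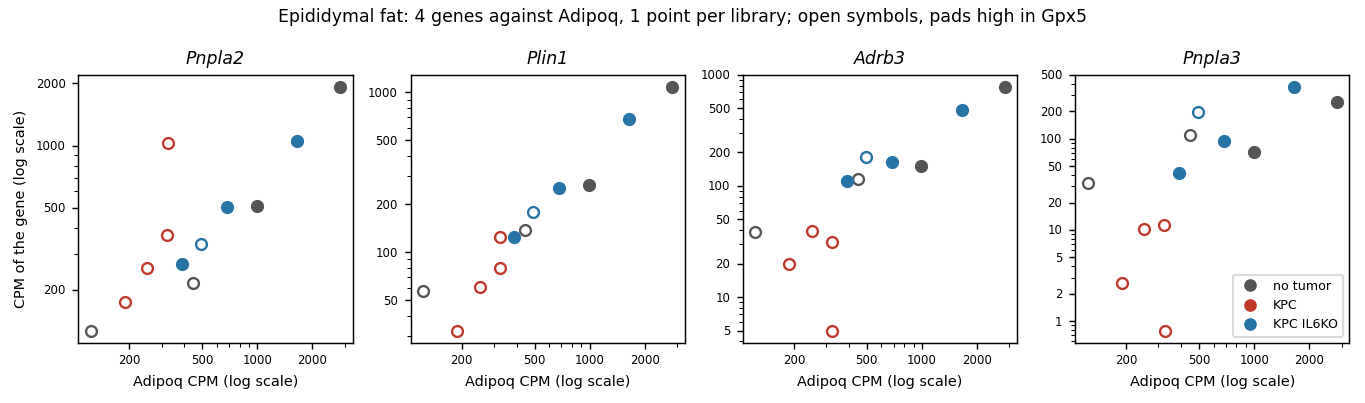
CPM of Pnpla2, Plin1, Adrb3 and Pnpla3 against CPM of Adipoq in the 12 fat libraries, both on log axes, with open symbols for pads high in Gpx5. Plin1 is higher where Adipoq is higher over all groups, KPC 5 lies high for Pnpla2 at 1029 CPM, and the KPC libraries lie low for Pnpla3 at their Adipoq level.

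Per 1000 adipocyte marker counts, Pnpla3 was at 15.1, 6.33, 10.8 and 5.30 in no tumor 5 to 8, at 0.0584, 1.61, 2.36 and 0.736 in KPC 5 to 8, and at 8.02, 22.8, 16.4 and 9.33 in KPC IL6KO 5 to 8. Adrb3 was at 11.1 to 19.6 in no tumor, at 0.370 to 8.90 in KPC and at 16.2 to 21.3 in KPC IL6KO. Plin1 was at 18.8 to 27.3 in no tumor, at 9.13 to 13.8 in KPC and at 20.7 to 30.2 in KPC IL6KO. The 10 markers did not move alike, with a log2 FC between KPC and no tumor from -0.27 for Fabp4 to -3.74 for Lep. Adipoq was at -2.02, and Fabp4 made up 7074 of the 13503 CPM of the list in KPC 5. A low value on this scale is thus not a measure per fat cell. Per 1000 marker counts, the KPC libraries lay below all libraries of both other groups for Pnpla3, Adrb3 and Plin1. Relative to Adipoq alone, a measure added after seeing the data, this held for Pnpla3, at 0.00243 to 0.0413 counts per Adipoq count in KPC, 0.0727 to 0.263 in no tumor and 0.109 to 0.399 in KPC IL6KO. For Adrb3 it held against KPC IL6KO only, since KPC 7 at 0.156 was above no tumor 8 at 0.152. For Plin1 it held against neither group, with KPC 5 at 0.385 against 0.264 to 0.462 in no tumor and 0.321 to 0.413 in KPC IL6KO. Per 1000 counts of the 10 markers again, Pnpla2 was at 29.3 to 48.5 in no tumor, at 49.7 to 76.2 in KPC and at 38.9 to 50.9 in KPC IL6KO, so that KPC lay above no tumor and overlapped KPC IL6KO. Per Adipoq count it was at 0.484 to 1.03, 0.932 to 3.18 and 0.635 to 0.737 in these groups, so that KPC overlapped no tumor and lay above KPC IL6KO. Cidec per Adipoq count lay above no tumor in every KPC library, at 1.12 to 2.19 against 0.715 to 1.117. Abhd5, at 0.270 to 0.450 against 0.0842 to 0.174, and G0s2, at 0.122 to 0.181 against 0.0783 to 0.0934, lay above KPC IL6KO. Members without overlap per Adipoq count were thus 2 between KPC and no tumor, 5 between KPC and KPC IL6KO and 0 between KPC IL6KO and no tumor, and the shares of all genes were 6.37%, 32.2% and 0.525%. On the scale of the 10 markers, members whose groups did not overlap were 4 between KPC and no tumor, 3 between KPC and KPC IL6KO and 1 (Plin4) between KPC IL6KO and no tumor, and the shares of all genes were 5.21%, 2.12% and 0.873%. None of the 10 genes was called on this scale by edgeR's quasi-likelihood test in any comparison, where 0.0707% of all genes were called between KPC and no tumor and 0% in the other comparisons. The log2 FC between KPC and no tumor was -2.98 ± 0.90 for Pnpla3 (SE, FDR = 0.266 in edgeR), -1.61 ± 0.79 for Adrb3, -0.96 ± 0.65 for Plin1 and 0.58 ± 0.70 for Pnpla2. Lipe was at 34.9 to 49.9 in no tumor, 33.3 to 45.2 in KPC and 37.9 to 52.7 in KPC IL6KO. Plin4 was at 54.7 to 75.1, 53.9 to 89.1 and 76 to 148 in these 3 groups.

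The balance between the droplet coat, the regulators and Pnpla2 was measured within each library as a ratio of counts, which does not depend on how libraries are scaled. In fat, Plin1/Pnpla2 was 0.642, 0.563, 0.448 and 0.514 in no tumor 5 to 8, 0.121, 0.217, 0.237 and 0.184 in KPC 5 to 8, and 0.466, 0.532, 0.651 and 0.502 in KPC IL6KO 5 to 8. The ratio was lower in all KPC libraries than in any library of the other groups, by 2.92-fold against no tumor and 2.90-fold against KPC IL6KO. The 2-sided exact permutation test gave p = 0.0286 for each, the smallest value that 4 against 4 libraries allow, and 0.129 after adjustment over the 18 ratio tests. Of all genes, 3.12% had a ratio to Pnpla2 without overlap of KPC and no tumor, and 1.34% without overlap of KPC and KPC IL6KO. Among the pads high in Gpx5, no tumor 5 and 7 were at 0.642 and 0.448, KPC IL6KO 6 was at 0.532 and no KPC pad was above 0.237. The part of epididymis RNA in this ratio was not tested. KPC IL6KO and no tumor differed by 1.01-fold (exact permutation p = 0.943, n = 4 and 4). G0s2/Pnpla2 was 0.110 ± 0.030 in no tumor, 0.120 ± 0.045 in KPC and 0.127 ± 0.0057 in KPC IL6KO (SD, n = 4 each). Abhd5/Pnpla2 was 0.238 ± 0.129, 0.245 ± 0.0754 and 0.202 ± 0.0544 in these 3 groups. Neither ratio differed between any groups of fat by more than the spread of the libraries, and the lowest of the 6 p-values was 0.371 (exact permutation test).

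**Figure D3:**
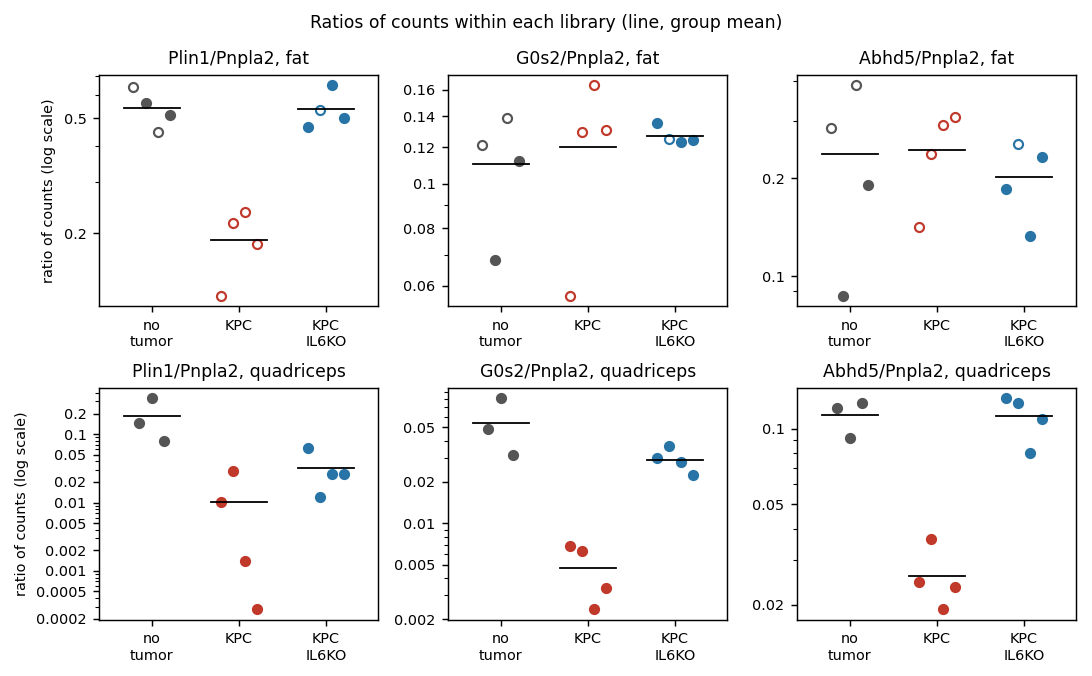
Ratio of counts of Plin1, G0s2 and Abhd5 to Pnpla2 in each library of fat (top, open symbols for pads high in Gpx5) and quadriceps (bottom), on log axes with the group mean as a line. In fat the KPC libraries stand apart for Plin1/Pnpla2, at 0.121 to 0.237, and in quadriceps they lie below both other groups for G0s2/Pnpla2 and Abhd5/Pnpla2.

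The pathway around these genes was followed with 97 other genes in 5 lists that share no gene with one another, of which 95 were counted in fat and 87 in quadriceps. In fat no gene of any list was called in any comparison by edgeR's quasi-likelihood test. In the list of signals that set lipolysis (29 genes), the lowest p between KPC and no tumor was that of Npr3, the clearance receptor for natriuretic peptides, at 23.7 ± 15.9 CPM in KPC and 369 ± 442 CPM in no tumor (SD, n = 4 each, log2 FC -3.96, FDR = 0.234). In the lipid droplet list (17 of 18 genes counted) it was Cav1, caveolin of the fat cell membrane, at 157 ± 57.8 against 1199 ± 1181 CPM (log2 FC -2.93, FDR = 0.225). Among the other lipases and carriers of glycerol and fatty acid (19 of 20) it was Aqp7, the glycerol channel, at 9.22 ± 4.45 against 56.1 ± 59.2 CPM (log2 FC -2.60, FDR = 0.258). In triglyceride synthesis (15 genes) it was Dgat2, which makes triglyceride from diglyceride, at 48.3 ± 7.73 against 540 ± 594 CPM (log2 FC -3.48, FDR = 0.218). Among transcription factors (15 genes) it was Cebpa, a factor of adipocyte differentiation and also on the adipocyte marker list, at 52.9 ± 21.3 against 218 ± 227 CPM (log2 FC -2.04, FDR = 0.288). The medians of these lists between KPC and no tumor were -0.38, -0.23, -0.38, -0.82 and -0.37 on the log2 scale, against -0.10 over all genes.

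Between KPC and KPC IL6KO fat, the lowest p fell to Tshr (log2 FC -2.05), Cav1 (-2.28), Aqp7 (-2.25), Dgat2 (-2.58) and Ppard (-0.40) in the same order of lists, with an FDR from 0.664 to 0.784. Between KPC IL6KO and no tumor it fell to Pde4d, a cAMP phosphodiesterase (log2 FC 0.98), Hilpda, a hypoxia-linked inhibitor of Pnpla2 (2.24), Ces1f (-1.54), Agpat6 (-0.49) and Stat3, the factor downstream of IL-6 receptors (0.70), with an FDR from 0.424 to 0.663. Hilpda was at 32.2 ± 27.7 CPM in KPC IL6KO and at 6.81 ± 2.48 CPM in no tumor (SD, n = 4 each), and its log2 FC between KPC and no tumor was 2.43 (FDR = 0.283 in edgeR).

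**Figure D4:**
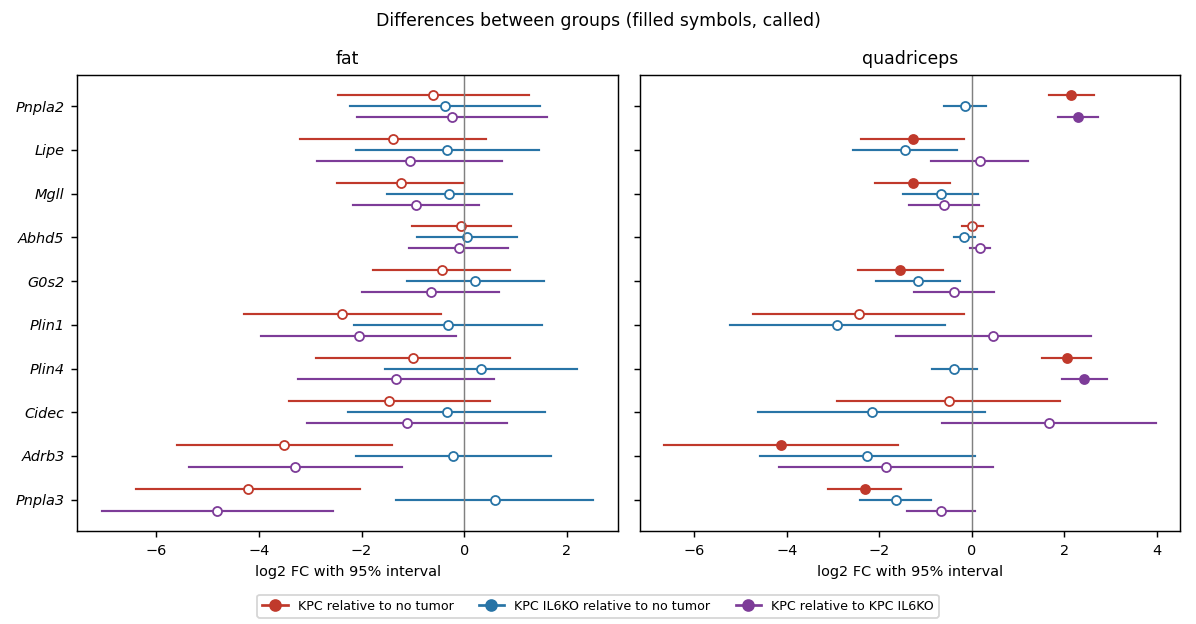
Log2 FC of the 10 genes with its 95% interval in fat and quadriceps for the 3 comparisons, with filled symbols for called genes. No symbol is filled in fat, where Pnpla3 lies at -4.21 and -4.81 in the comparisons of KPC, and Pnpla2 and Plin4 lie near 2 in quadriceps of KPC mice.

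In quadriceps, KPC mice had more Pnpla2 and Plin4 than no tumor mice, by 4.42-fold and 4.14-fold, and less Adrb3, Pnpla3, G0s2, Mgll and, by a call that DESeq2 did not make, Lipe. This was a tissue in which a large part of all genes moved, and edgeR's quasi-likelihood test called 26.7% of all genes up and 29% down, against 2 and 5 of the 10 members. Without no tumor 2, 4 members were called, and G0s2, Mgll and Lipe were not among them. The 4 members whose groups did not overlap were Pnpla2, Plin4, Adrb3 and Pnpla3, against 65.3% of all genes.

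**Figure D5:**
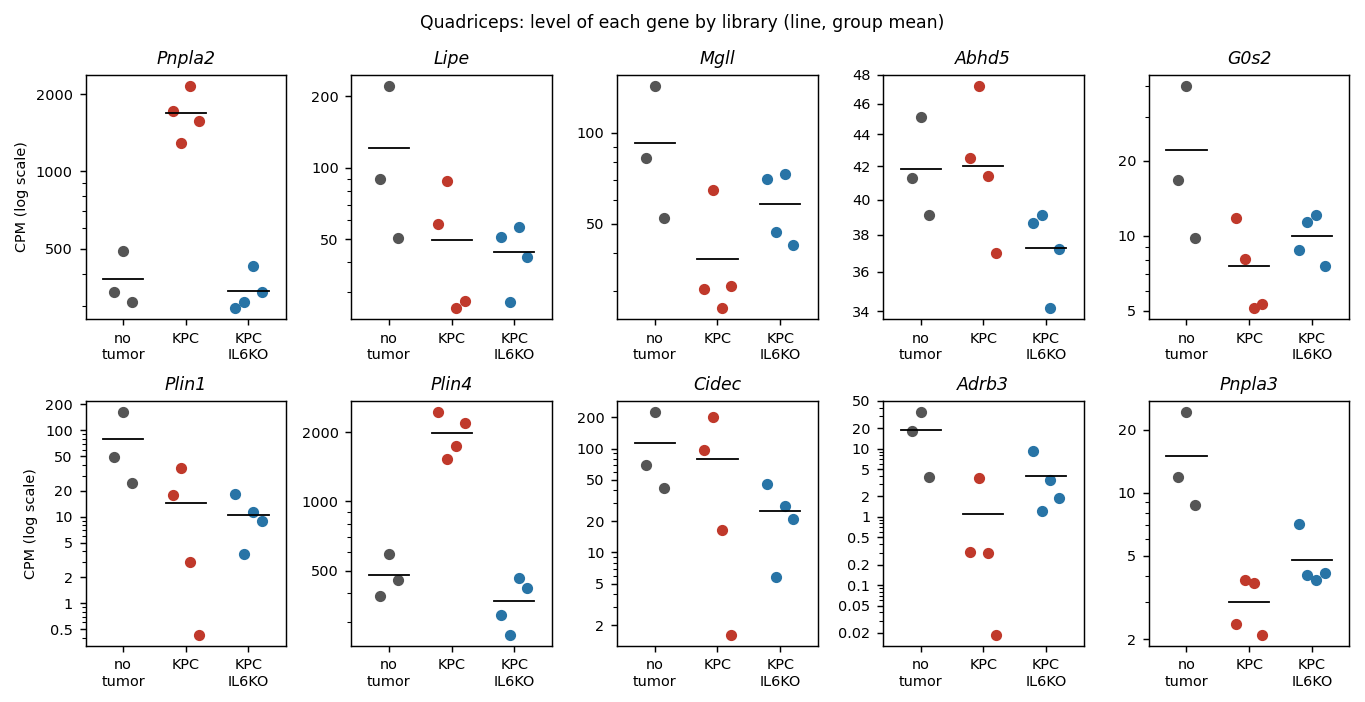
CPM of the 10 genes in quadriceps on log axes, 1 symbol per library, with the group mean as a line. Pnpla2 and Plin4 lie at 1291 CPM or more in every KPC library and at 590 CPM or less in all others, and no tumor 2 is the highest no tumor library for 10 of 10 genes.

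Pnpla2 was at 341, 491 and 310 CPM in no tumor 1 to 3. It was at 1722, 1291, 2158 and 1569 CPM in KPC 1 to 4. It was at 293, 311, 429 and 340 CPM in KPC IL6KO 1 to 4. Every KPC library was above every other library by a wide margin. Its log2 FC was 2.15 ± 0.22 (SE, FDR = 1.01e-05) against no tumor and 2.30 ± 0.20 (FDR = 3.26e-06) against KPC IL6KO, and it was -0.15 ± 0.21 (FDR = 1.00) between KPC IL6KO and no tumor, all in edgeR's quasi-likelihood test. Plin4 was at 387, 590 and 457 CPM in no tumor, at 2452, 1525, 1741 and 2203 CPM in KPC and at 322, 264, 465 and 422 CPM in KPC IL6KO. It showed the same separation of the groups, with a log2 FC of 2.05 ± 0.24 (FDR = 2.43e-05) against no tumor and 2.43 ± 0.22 (FDR = 4.16e-06) against KPC IL6KO. Between KPC and KPC IL6KO these were the 2 members called, both up, where 26.4% of all genes were called up and 27.3% down. The groups of that comparison did not overlap for Pnpla2, Plin4 and Pnpla3, and for 62% of all genes. Per kilobase of exon, Pnpla2 and Plin4 had the highest means of the 10 genes in all 3 groups of quadriceps, at 558 ± 120 and 343 ± 73.2 CPM per kb in KPC (SD, n = 4). In no tumor the libraries of Plin4 overlapped those of Cidec, the next gene.

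The windows around the start sites of Pnpla2 and Plin4, which rose together in muscle, are given with the same bounds and motifs.
Pnpla2, chr7:141454938-141455237, plus strand: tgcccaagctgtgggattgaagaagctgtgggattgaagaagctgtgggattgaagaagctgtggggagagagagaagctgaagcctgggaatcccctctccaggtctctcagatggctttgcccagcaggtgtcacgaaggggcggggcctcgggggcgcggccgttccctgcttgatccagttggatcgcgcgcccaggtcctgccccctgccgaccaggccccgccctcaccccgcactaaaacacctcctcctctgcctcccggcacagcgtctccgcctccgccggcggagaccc
Plin4, chr17:56109733-56110032, minus strand: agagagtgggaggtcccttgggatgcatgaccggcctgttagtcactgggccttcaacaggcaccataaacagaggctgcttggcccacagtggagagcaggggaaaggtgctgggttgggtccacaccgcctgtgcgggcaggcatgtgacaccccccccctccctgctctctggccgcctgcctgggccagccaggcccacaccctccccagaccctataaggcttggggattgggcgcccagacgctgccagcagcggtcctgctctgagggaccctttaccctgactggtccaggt
Neither window held any of the 7 motifs, which were found in 1.79% (TGACGTCA) to 19.0% (AGAACA) of all windows, with 3.65% for the forkhead letters and 8.30% for the STAT letters. This says only that those letters are not in these 300 bases.

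The other lipases and regulators were lower in KPC quadriceps or did not differ. Mgll was at 82.5, 143 and 52.5 CPM in no tumor, at 30.4, 64.8, 26.3 and 31.2 CPM in KPC and at 42.6 to 72.9 CPM in KPC IL6KO, with a log2 FC of -1.28 ± 0.37 (SE, FDR = 0.00892) between KPC and no tumor. Lipe was at 89.9, 222 and 50.6 CPM in no tumor, at 58.1, 87.6, 25.6 and 27.4 CPM in KPC and at 27.2 to 56.5 CPM in KPC IL6KO, with a log2 FC of -1.28 ± 0.51 (FDR = 0.0417) that was not called by DESeq2 (FDR = 0.0537), with a replicate block or without 8 of the 11 libraries taken singly. G0s2 was at 16.6, 40.0 and 9.78 CPM in no tumor, at 11.8, 8.08, 5.11 and 5.33 CPM in KPC and at 7.58 to 12 CPM in KPC IL6KO, with a log2 FC of -1.55 ± 0.42 (FDR = 0.00621). These 3 genes fell by the test, although their groups overlapped, and without no tumor 2 none of the 3 was called, at -0.82, -0.50 and -0.81. Abhd5 stayed within 34.1 to 47.2 CPM in all 11 libraries, with a log2 FC of 0.01 and a 95% interval from -0.22 to 0.24 between KPC and no tumor. Lipe shares 15.6% of its exon length with 4732471J01Rik, a gene of the opposite strand that was also counted, and Adrb3 shares 24.9% with Gm45470 and Abhd5 16% with A730085K08Rik, likewise on the opposite strand. Pnpla3 shares 6.78% with Gm49513 on the same strand. The libraries were strand-specific, but whether strand was used in counting is not given in the sources used here, so reads of these pairs may not be told apart.

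Adrb3 was at 18.4, 34.4 and 3.89 CPM in no tumor quadriceps, at 0.308, 3.75, 0.295 and 0.0188 CPM in KPC and at 9.36, 1.21, 3.51 and 1.89 CPM in KPC IL6KO. KPC 4 had 1 count of this gene, and no tumor 3 and KPC 2 nearly met. Its log2 FC was -4.12 ± 1.16 (SE, FDR = 0.00767) between KPC and no tumor, and it was -6.46 without KPC 2 and -3.36 without no tumor 2, called in both cases. Pnpla3 was at 11.8, 24.3 and 8.76 CPM in no tumor, at 2.37, 3.83, 3.70 and 2.11 CPM in KPC and at 7.13, 4.05, 3.84 and 4.15 CPM in KPC IL6KO. No tumor stood above both tumor groups, and the log2 FC was -2.32 ± 0.36 (FDR = 0.000159) for KPC and -1.65 ± 0.35 (FDR = 0.228) for KPC IL6KO. Plin1 was at 49.5, 164 and 24.4 CPM in no tumor, at 17.7, 37.1, 2.98 and 0.433 CPM in KPC and at 18.3, 3.73, 11.4 and 8.97 CPM in KPC IL6KO. It was not called in KPC, with a log2 FC of -2.44 ± 1.04 (FDR = 0.0550). The likelihood ratio test called it (FDR = 0.0242), and without no tumor 2 its log2 FC was -1.35 (FDR = 0.305 in edgeR). Cidec was at 69.3, 226 and 42.0 CPM in no tumor 1 to 3 and at 97.3, 203, 16.4 and 1.62 CPM in KPC, with a log2 FC of -0.50 ± 1.10 (FDR = 0.700) that was 0.51 without no tumor 2.

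Adipocyte RNA in the muscle samples moved with several of these genes. Adipoq was at 70.3, 197 and 35.8 CPM in no tumor 1 to 3, at 42.8, 94.0, 9.43 and 0.828 CPM in KPC 1 to 4 and at 35.3, 6.05, 21.6 and 18.3 CPM in KPC IL6KO 1 to 4. The library with most Adipoq in each group, no tumor 2, KPC 2 and KPC IL6KO 1, was also the one with most Plin1, Cidec and Adrb3, and KPC 4 was the KPC library with least of all 4 genes. The 10 adipocyte markers summed to 1280 to 3829, 1400 to 3032 and 1344 to 1810 CPM in no tumor, KPC and KPC IL6KO, a list that holds Cd36, Lpl and Acsl1, which muscle also expresses. Its part in the lower levels of Adrb3, Plin1, Pnpla3, Lipe, Mgll and G0s2 was not tested. Several other marker lists did not overlap between KPC and the other groups. In no tumor, KPC and KPC IL6KO, the fibroblast and preadipocyte markers summed to 1302 to 1446, 181 to 313 and 687 to 1077 CPM, the neutrophil markers (3 of 9 counted) to 0.0512 to 0.294, 3.93 to 20.6 and 1.14 to 2.54 CPM, and the muscle fiber markers to 158109 to 194307, 125420 to 143510 and 180368 to 195962 CPM. Thermogenic adipocyte markers (4 of 6 counted) summed to 576 to 657, 302 to 469 and 603 to 734 CPM. Cidea, a gene of this list, had a mean of only 12.9, 7.29 and 1.56 CPM in these groups. Most of the sum thus came from other genes of the list, which summed to 2.86 to 63.1 CPM over the fat libraries. The sum is therefore not a measure of thermogenic adipocytes in muscle, and the cells it came from were not tested. The part of these lists in the changes of the 10 genes in muscle was not tested. Pnpla2 and Plin4 were at 1569 and 2203 CPM in KPC 4, where Adipoq was at 0.828 CPM. This is a single library, and the part of adipocyte RNA in these genes was not tested.

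Between KPC IL6KO and no tumor quadriceps, the quasi-likelihood test called none of the 10 genes and 0% of all genes. An unadjusted p under 0.05 was found for 4 members, Pnpla3, Lipe, G0s2 and Plin1, all lower in KPC IL6KO, and for 6.91% of all genes. The likelihood ratio test called 0.74% of all genes and DESeq2 0.725%, and each called 1 member, Pnpla3 (FDR = 0.00354 and 0.00255). The log2 FC was below 0 for all 10 genes, from -0.15 for Pnpla2 to -2.91 for Plin1. Without no tumor 2 it was 0.0761 for Pnpla2 and below 0 for the other 9, and it was -1.81 for Plin1, -1.15 for Cidec, -1.11 for Pnpla3, -0.67 for Lipe and -0.42 for G0s2. The groups did not overlap for Abhd5, Plin1 and Pnpla3, and for 15.5% of all genes, and for Abhd5 the lowest no tumor library and the highest KPC IL6KO library were both at 39.1 CPM.

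Within quadriceps libraries, G0s2/Pnpla2 was 0.0488, 0.0814 and 0.0315 in no tumor, 0.00685, 0.00626, 0.00237 and 0.00339 in KPC and 0.0297, 0.0364, 0.0281 and 0.0223 in KPC IL6KO. KPC libraries were thus 11.6-fold below no tumor (exact permutation p = 0.0571, the smallest that 4 against 3 allow) and 6.66-fold below KPC IL6KO (exact permutation p = 0.0286), each 0.129 after adjustment. Abhd5/Pnpla2 was 0.113 ± 0.0185 in no tumor (SD, n = 3), 0.0260 ± 0.00745 in KPC and 0.112 ± 0.0234 in KPC IL6KO (n = 4 each), with no overlap of KPC with either group. Pnpla2 itself rose, and the ratio to it had no overlap with no tumor for 90.9% of genes and none with KPC IL6KO for 93.2%. Plin1/Pnpla2 did not overlap between KPC IL6KO and no tumor either, at 0.0120 to 0.0624 against 0.0785 to 0.333, against 4.42% of genes. The exact permutation test gave p = 0.0571 for it, and 0.129 after adjustment. In KPC this ratio was 0.000276 to 0.0288, which was 47.9-fold below no tumor without overlap (exact permutation p = 0.0571). It was 8.26-fold below KPC IL6KO, with overlap of the groups (exact permutation p = 0.114).

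In the lists around the pathway, muscle genes were called in both directions between KPC and no tumor, and their counts stand against 26.7% of all genes called up and 29% down. Of the signals that set lipolysis, 3 of 26 counted genes rose and 9 fell, from Irs2, an insulin receptor substrate, at 144 ± 76.1 CPM in KPC against 46.8 ± 18.6 CPM in no tumor (log2 FC 1.62, FDR = 0.00322), to Hcar1, the lactate receptor, at 0.278 ± 0.226 against 5.98 ± 4.72 CPM (log2 FC -4.42, FDR = 0.00238). Of the lipid droplet list, 6 of 16 rose, led by Plin5, the coat of droplets beside mitochondria, at 141 ± 53.4 against 39.2 ± 10.6 CPM (log2 FC 1.84, FDR = 0.000713), and 3 fell, led by Cav1 (log2 FC -1.64, FDR = 3.9e-05). Of the other lipases and carriers, 4 of 17 rose and 3 fell, led by Abhd6, a monoglyceride lipase (log2 FC 2.30, FDR = 0.000161), and by Aqp7 (log2 FC -2.35, FDR = 0.000796). Of triglyceride synthesis, 4 of 13 rose, led by Lpin2, a phosphatidate phosphatase, at 47.3 ± 16.0 against 4.43 ± 0.100 CPM (log2 FC 3.41, FDR = 4.01e-06), and 3 fell, led by Gpd1, which makes glycerol phosphate, at 192 ± 73.8 against 1090 ± 44.8 CPM (log2 FC -2.51, FDR = 2.4e-05). Of the transcription factors, 6 of 15 rose, led by Foxo1, a factor held back by insulin signalling, at 169 ± 49.3 against 24.1 ± 10.4 CPM (log2 FC 2.82, FDR = 1.81e-05), and 2 fell, led by Cebpa (log2 FC -2.51, FDR = 0.00254). The medians of the lists were -0.65, 0.14, -0.25, 0.10 and 0.56 on the log2 scale, against -0.03 over all genes.

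Against KPC IL6KO, the KPC counts of genes up and down were 3 and 5, 8 and 3, 4 and 3, 7 and 2, and 7 and 1 in the same order of lists, where 26.4% of all genes were called up and 27.3% down. Irs2 (log2 FC 2.36), Cidea (2.22), Abhd6 (2.29), Lpin2 (3.36) and Foxo1 (3.21) rose most. Cidea varied widely, at 7.29 ± 8.42 CPM in KPC against 1.56 ± 0.63 CPM in KPC IL6KO (SD, n = 4 each). It was not called between KPC and no tumor, with a log2 FC of -0.84. Irs1 (-1.65), Fitm1 (-1.50), Aqp7 (-1.80), Gpd1 (-2.25) and Srebf1 (-1.50) fell most. Between KPC IL6KO and no tumor no gene of any list was called by the quasi-likelihood test, and the lowest p in each list was that of Ptger3, Cidea, Fabp4, Agpat2 and Cebpa, with an FDR from 0.228 to 0.527.

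Over the 11 quadriceps libraries, Plin4 had an r of 0.97 with Pnpla2 in log2 CPM, whereas the other 8 members ranged from -0.68 (Adrb3) to 0.36 (Abhd5). Among the 5 other genes closest to Pnpla2 were Ctps2, a CTP synthase, with an r of 1.00, and Echs1, an enzyme of fatty acid oxidation in mitochondria, Ddx27, an RNA helicase, and Atp6v1c1, a subunit of the vacuolar proton pump, with an r of 0.99 each, among 10510 genes searched. The values are over all 11 libraries and hold the differences between the groups.

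With all libraries in the fit, the response to KPC tumors differed between the tissues for Pnpla2 and Plin4. Over the 12599 genes counted in both tissues, the KPC response in fat minus that in quadriceps was -2.64 ± 0.98 on the log2 scale for Pnpla2 (SE, FDR = 0.0387) and -2.93 ± 0.99 for Plin4 (FDR = 0.0252) in edgeR's quasi-likelihood test, where 36.9% of all genes were called. Without no tumor 6 the log2 FC in fat was 0.68 for Pnpla2 and 0.16 for Plin4, nearer to the 2.15 and 2.05 of quadriceps. The interaction is not given without this library. The other 8 members were not called, from -1.75 ± 1.05 for Pnpla3 (FDR = 0.195) to 1.22 ± 0.81 for G0s2 (FDR = 0.242). For KPC IL6KO, 0% of genes and none of the 10 were called, and the lowest p was that of Pnpla3 (2.23 ± 1.03, FDR = 0.605). Fat and muscle came from separate RNA isolations and sequencing with unequal input RNA, and the sources differ on whether the library kit was the same for both. These cannot be told apart from the tissue, and each response is relative to no tumor samples of the same tissue.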

How the data were processed

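RNA-seq libraries from 12 epididymal fat pads and 11 quadriceps were analysed, 1 library per sample, assigned to tissue, group and replicate from the sample titles. The authors deposited 1 table of raw counts per tissue, made, per the labels and the study's methods, from strand-specific libraries with FastQC, STAR alignment to mm10, uniquely mapped reads and featureCounts 1.5.1, and edgeR 3.12.1 is named in the submitters' notes. 1 no tumor muscle sample had been removed by the authors, and the tables hold no genes of very few counts.

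TMM factors were used, and each tissue had 1 fit of its 3 groups with the quasi-likelihood test of edgeR 4.0.16 (R 4.3.3), without robust estimation, with Benjamini-Hochberg adjustment over all genes of a table. filterByExpr removed 0 genes. CPM were computed with TMM-adjusted library totals. Intervals are 95%, and a prior count of 2 was used for log2 CPM. Alternatives used DESeq2 1.42.0, the likelihood ratio test, RLE scaling, other filters, a replicate block, adipocyte scaling, a Gpx5 covariate (pads split at 1000 CPM) and leaving out each library. Ratios were compared by 2-sided exact permutation tests in scipy 1.17.1 and figures drawn with matplotlib 3.10.9. Fits were tested on simulated counts with 100 genes changed 2-fold and 100 changed 4-fold in KPC. The fit called 6 and 41 of these in fat, and 58 and 94 in quadriceps. Positions and exon lengths are from GENCODE vM21 (GRCm38, the same build as mm10). The genes lie at chr7:141455198-141460743 (Pnpla2), chr7:25379527-25398710 (Lipe), chr6:88724412-88828360 (Mgll), chr9:122351608-122381524 (Abhd5), chr1:193272161-193273217 (G0s2), chr7:79720218-79732903 (Plin1), chr17:56100591-56109803 (Plin4), chr6:113424634-113435760 (Cidec), chr8:27225776-27250616 (Adrb3) and chr15:84167837-84187236 (Pnpla3), and counts were summed over their exons.

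The members, the lists and the tests were chosen with earlier results of these data known. The genes named were all members, in each list the called gene with the largest rise and with the largest fall (or the lowest p where none was called), and the 5 genes most like Plin1 in fat and Pnpla2 in quadriceps above a mean log2 CPM of 1, of which 1 is not reported here. Within a tissue, samples are separate mice. The sources do not settle whether the same mice gave both fat and quadriceps. No library differed from another of its group by less than sampling noise (chi-square per degree of freedom at least 28.9 in quadriceps and 84.3 in fat). In fat a count of 3, the level taken as not distinguished from 0, was 0.0474 to 0.123 CPM.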

Additional observations from a re-analysis of the deposited data

Results flagged for a closer look

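Among groups of 4 libraries, 65 sets of values (the 10 genes and 3 ratios in 5 groups) were examined for a library that stands apart by Dixon's test, which chance does in about 5% of sets, and 6 were found. In quadriceps, Mgll was at 64.8 CPM and Adrb3 at 3.75 CPM in KPC 2, the KPC library with most Adipoq, and Pnpla3 was at 7.13 CPM in KPC IL6KO 1, the KPC IL6KO library with most Adipoq, each above the rest of its group. In fat, Adrb3 was at 780 CPM in no tumor 6, the library richest in Adipoq, and Mgll at 372 CPM in KPC 5, each above the rest of its group. The ratio G0s2/Pnpla2 was 0.135 in KPC IL6KO 5 of fat, above 3 libraries that were close together.

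The KPC response differed between tissues by the interaction test, with -2.64 for Pnpla2 and -2.93 for Plin4 (fat minus quadriceps, log2 scale), where 36.9% of all genes were called. Both genes were called up in quadriceps, and in fat both had a log2 FC below 0 that was above 0 without no tumor 6. Scaled to adipocyte markers, Pnpla2 was at 0.58 and Plin4 at 0.12 in fat, where the median of all genes was 0.25.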

How the results depend on the processing

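Where members were called, in the comparisons of KPC quadriceps, their count kept within 1.5 times of the reported count in most settings. A reported count of 0 cannot be judged in this way, and its alternatives are given as counts. In fat, 0 members were called between KPC and no tumor, and 2 with DESeq2 and 2 with the likelihood ratio test (Pnpla3 and Adrb3). Between KPC and KPC IL6KO it was 0, against 2 with DESeq2 and 1 with the likelihood ratio test. In quadriceps, between KPC IL6KO and no tumor, it was 0, against 1 (Pnpla3) with either test. Leaving out 1 library at a time gave 4 to 8 members called between KPC and no tumor in quadriceps (7 reported, 4 without no tumor 2) and 2 to 4 between KPC and KPC IL6KO (2 reported, 4 without KPC 2). The call of Lipe in KPC quadriceps was also lost with DESeq2, with only the compared groups in the fit, with a replicate block, and without 8 of the 11 libraries taken singly.

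Directions turned mostly in fat and among members that were not called, and the cause was not tested. Between KPC and no tumor in fat, log2 FC with adipocyte marker scaling was 0.58 for Pnpla2, 0.62 for Abhd5, 0.67 for G0s2, 0.12 for Plin4 and 0.0869 for Cidec. Scaling to Adipoq alone, added after seeing the data, gave 1.21 for Pnpla2, 0.44 for Lipe, 0.91 for Abhd5, 1.01 for G0s2, 0.76 for Plin4 and 0.69 for Cidec. Within the pads high in Gpx5 it was 1.51 for Pnpla2, 0.52 for Lipe, 0.79 for Abhd5, 1.06 for G0s2, 0.70 for Plin4 and 1.11 for Cidec, and with Gpx5 as a covariate 0.55 for Pnpla2, 0.39 for Abhd5, 0.46 for G0s2 and 0.0897 for Plin4. Abhd5 was at 0.0109 with the epididymis list left out of the scaling. Between KPC and KPC IL6KO in fat, adipocyte marker scaling gave 0.34 for Pnpla2, 0.0047 for Mgll, 0.58 for Abhd5 and 0.19 for G0s2. Scaling to Adipoq alone gave 1.19 for Pnpla2, 0.45 for Lipe, 0.62 for Mgll, 1.23 for Abhd5, 0.82 for G0s2, 0.17 for Plin4 and 0.38 for Cidec. In the comparisons of KPC, a scaling to adipocyte RNA moves the genes together, so these turns are not separate results for each gene. With the 10 markers the median of all genes was 0.25 between KPC and no tumor and 0.63 between KPC and KPC IL6KO. No median of all genes is given for the scaling to Adipoq. The Gpx5 covariate gave 1.00 for Pnpla2, 0.20 for Lipe, 0.44 for Abhd5, 0.41 for G0s2, 0.0546 for Plin4 and 0.29 for Cidec. Between KPC IL6KO and no tumor in fat, Pnpla2 was at 0.24 with adipocyte marker scaling and at 0.0168 with Adipoq alone, and at -1.01 within the pads low in Gpx5, a setting added after seeing the data. In quadriceps, Abhd5 was at -0.0229 between KPC and no tumor with at least 10 counts in every library.

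Leaving out 1 library at a time, log2 FC between KPC and no tumor in fat ranged from -1.39 to 0.68 for Pnpla2, from -0.38 to 0.38 for Abhd5, from -0.74 to 0.34 for G0s2 and from -1.74 to 0.16 for Plin4, each above 0 without no tumor 6. It stayed below 0 for the 3 genes lowest in KPC, from -4.67 to -3.51 for Pnpla3, from -3.87 to -2.09 for Adrb3 and from -2.75 to -1.04 for Plin1, nearest to 0 without no tumor 6 in each case. Between KPC and KPC IL6KO in fat it ranged from -1.02 to 0.35 for Pnpla2 and from -0.44 to 0.15 for Abhd5. Between KPC IL6KO and no tumor in fat it ranged from -0.94 to 0.92 for Pnpla2 and from -0.0953 to 1.2952 for Pnpla3. In quadriceps it ranged from -0.0548 to 0.0639 for Abhd5 and from -1.55 to 0.51 for Cidec between KPC and no tumor, from -0.28 to 0.0761 for Pnpla2 between KPC IL6KO and no tumor, and from -0.26 to 0.38 for Lipe and from -0.58 to 0.86 for Plin1 between KPC and KPC IL6KO. Log2 ratios turned for Abhd5/Pnpla2 between KPC IL6KO and no tumor, from -0.17 to 0.12 in quadriceps and from -0.50 to 0.22 in fat, and between KPC and no tumor in fat, from -0.24 to 0.48. They also turned in fat for G0s2/Pnpla2 between KPC and no tumor (-0.14 to 0.40) and between KPC and KPC IL6KO (-0.36 to 0.15), and for Plin1/Pnpla2 between KPC IL6KO and no tumor (-0.11 to 0.0762). Plin1/Pnpla2 in KPC fat kept its direction, from -1.67 to -1.35 against no tumor and from -1.66 to -1.34 against KPC IL6KO. Adding 0.5 to each count turned no ratio.

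The replicate numbers did not pair the samples, with correlations of same-numbered deviations from -0.54 to 0.65 in fat and from -0.15 to 0.27 in quadriceps. With a replicate block, Lipe was at -0.13 and Plin1 at -0.83 between KPC and KPC IL6KO in quadriceps, Abhd5 at 0.0294 between KPC and no tumor in fat and Pnpla2 at 0.0746 between KPC IL6KO and no tumor in fat. The block kept 7 members called between KPC and no tumor in quadriceps, with Plin1 gained and Lipe lost, and called 3 between KPC and KPC IL6KO, with Adrb3 added.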
